A study of Mus musculus with 18 samples.

Results

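MacroH2A2-GFP was mapped in mouse cells 6 hours after its induction, with and without a 10 day treatment with the Ezh2 inhibitor GSK126, and the 2 native ChIP-seq libraries, of 18 samples in the series, are compared here. They were chosen by their labels: 0.5 ug/ml doxycycline for 6h, preceded in 1 of them by 5 uM GSK126. The cells were dermal fibroblasts of a newborn (P0) male mouse of the 129/S6 background, immortalized with SV40 and kept for 20-30 passages. Both macroH2A genes, macroH2A1 and macroH2A2, are labelled as knocked out in all of these cells, the library without GSK126 included, and a doxycycline-inducible macroH2A2-GFP transgene supplies the only tagged histone. Chromatin was cut with MNase and taken up with GFP-Trap beads, so each region reports where the caller found an excess of recovered chromatin. The library without doxycycline held regions too, and 40.0% of the 6h region bases and 35.4% of those with GSK126 lay in them. Each condition had 1 library. No test between the libraries was therefore possible, the differences have no replicate check, and the labels name no vehicle for the library without GSK126. A library from cells without doxycycline (0h) and the pair at 24h, of the same design, stand beside the 6h values.

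MacroH2A is a histone H2A variant with a large non-histone macro domain, found in broad domains of chromatin and scarce over active genes once its pattern is settled. Ezh2 is the catalytic subunit of Polycomb repressive complex 2 (PRC2), which methylates lysine 27 of histone H3 (H3K27) over developmental genes that a cell keeps silent. GSK126 competes with the methyl donor S-adenosylmethionine in the active site of Ezh2, so that the mark is lost as cells divide. Comparing the 6h libraries asks where early macroH2A2 lands in cells given the inhibitor. No measurement of the mark itself was analysed here.

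The fibroblast label was checked on RNA of the same cell line without GSK126: 17 of 18 fibroblast markers had 1 CPM (RNA counts scaled to a common library size) or more, Lum being the exception, and their sum was 17399 to 17716 CPM over the 3 replicates at 0h. Of 33 markers of other cell types 4 had 1 CPM or more, 9 were at 0, and their sum was 18.1 to 19.3 CPM. The RNA of Macroh2a2, the induced histone, was 15.3 ± 8.88 CPM (SD, n = 3) before doxycycline and 808 ± 16.1 CPM (SD, n = 3) at 6h. RNA libraries held 30376573 to 37793178 counts over genes at 0h and 6h. No RNA library of cells given GSK126 was analysed here, so RNA classes below describe the genes without the inhibitor. The read depth of the ChIP libraries is unknown, and how many regions a caller finds moves with depth. Its part in the differences was not tested.

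With GSK126 the early histone was found in more and shorter regions. The 6h library held 62192 regions over 382.7 Mb and the 6h GSK126 library 79959 regions over 392.3 Mb. Median region length was 4400 bases without and 3400 bases with the inhibitor, and regions of 10 kb or more numbered 8846 (14.2%) and 7577 (9.48%). The larger covered length rested on short regions, since with regions under 2 kb left out the libraries covered 373.1 and 371.7 Mb. At 24h the order was the opposite, with 363.1 Mb without and 338.2 Mb with GSK126, and before doxycycline 201.1 Mb was covered.

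Most regions had a counterpart in the other library, and the new ones lay more often inside genes. Of the 6h regions 86.5% shared at least 1 base with a 6h GSK126 region (95% exact binomial interval 86.2 to 86.7%, for counting error only), against 73.1% (72.8 to 73.4%) of the 6h GSK126 regions in turn. There were 8412 regions over 29.3 Mb without a counterpart in the 6h library and 21529 over 63.6 Mb in the 6h GSK126 library. Regions found with GSK126 alone had 59.2% of their bases in protein-coding genes, against 46.7% for its shared regions and 47.1% for regions of the 6h library alone. They also differed in what they touched at other times: 8.10% touched a 0h region, against 44.4% of the shared regions. A region of the 24h library without GSK126 was touched by 23.6%, against 67.5%, and one of the 24h GSK126 library by 36.7%, against 66.0%. They were shorter than the shared regions (median 2600 and 4000 bases), and the part of length in these rates was not tested. Regions that the 6h library alone held touched 0h regions in 21.5%, 24h regions in 50.4% and 24h GSK126 regions in 33.0% of cases. Of the 6h regions 13.5% overlapped 2 or more GSK126 regions, and of the GSK126 regions, the longer list, 6.32% overlapped 2 or more 6h regions.

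The 5 longest regions present only with GSK126 had no base of a region at 0h or in either 24h library. They lay at chrX:94874001-94918000, 104506 bases from Spin4, the nearest coding gene, in Tbc1d5 (chr17:50868201-50911000), Anapc10 (chr8:79766201-79794000), Rc3h2 (chr2:37396001-37422200) and Zfp943 (chr17:21978201-22003600). The 5 longest regions present only without it behaved otherwise, as all of them were covered by 99.2% or more at 24h. Among these were a region over Dynlt1b (chr17:6409401-6456600), covered by 100% at 24h and by 0% at 24h with GSK126, and one in Glra3, a glycine receptor gene (chr8:56108601-56134000), covered by 85.0% at 0h and 80.3% at 24h with GSK126. Each of the 10 regions had the lowest score that the lists give, 1.

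Gene bodies gained region bases and intergenic sequence lost them. Over protein-coding gene bodies the regions covered 168.4 Mb without and 189.6 Mb with GSK126, or 16.6% and 18.7% of that sequence. Their share of all region bases was 44.0% and 48.3%. Intergenic sequence held 174.9 and 164.9 Mb (45.7% and 42.05% of region bases), and each of its 4 distance classes was lower with GSK126: 46.3 and 44.3 Mb within 10 kb of a coding gene, 49.8 and 46.8 Mb at 10 to 50 kb, 42.6 and 40.8 Mb at 50 to 200 kb, 36.3 and 33.0 Mb beyond 200 kb. Other genes, mostly non-coding, held 35.3 and 33.4 Mb. Promoter windows, 1 kb to each side of the gene start, barely differed, at 4.16 and 4.25 Mb.

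The intergenic loss was not seen once regions that touched a 0h region were left out. This filter drops whole regions, with their bases outside 0h regions, so it does not place the loss within 0h sequence. When every region with a base of a 0h region was left out of both libraries, intergenic bases were higher with GSK126 (49.9 and 57.6 Mb), while gene bodies kept their order (114.4 and 141.0 Mb). Where only regions scoring at or above the library's median were kept, gene bodies still held more with GSK126 (64.7 and 75.8 Mb) and intergenic sequence was near level (111.8 and 111.4 Mb). The 24h libraries did not share the gain in gene bodies, with 96.4 Mb without and 85.3 Mb with GSK126, and had less intergenic sequence too, 219.0 and 208.1 Mb.

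**Figure D1:**
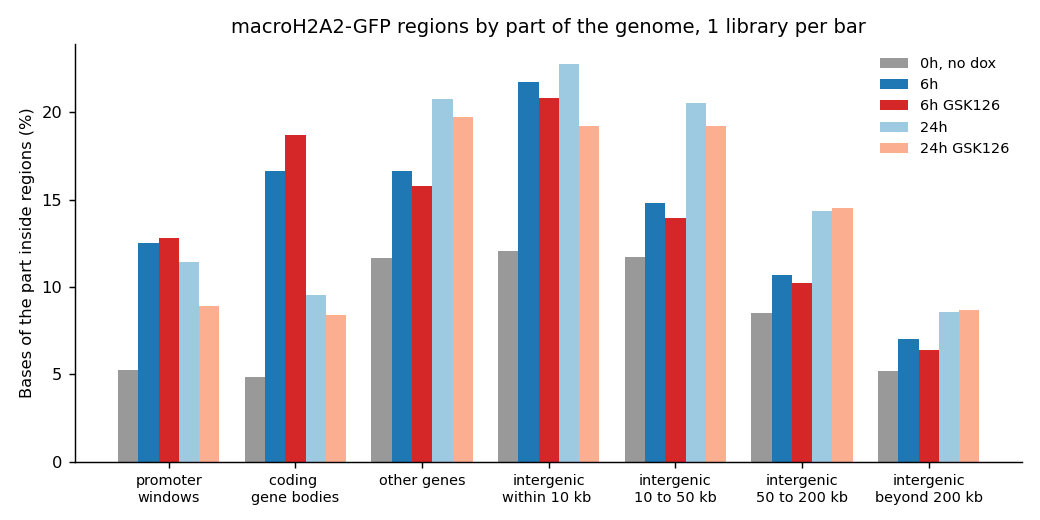
Percent of the bases of each part of the genome (x axis) that lay inside macroH2A2-GFP regions (y axis), with 1 bar per library. Coding gene bodies are the part where the 6h GSK126 bar (18.7%) stands clearly above the 6h bar (16.6%), while the 4 intergenic classes and other genes are lower with GSK126 at 6h.

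The gain in gene bodies was seen on nearly every chromosome, and the intergenic loss on fewer. Region bases in coding gene bodies were higher with GSK126 on 19 of 20 chromosomes (1 to 19 and X), the exception being 12, with ratios from 0.988 there to 1.25 on chromosome 14. Intergenic bases were lower on 16 of 20, with ratios from 0.855 on chromosome 12 to 1.103 on X, and chromosomes 6, 14, 19 and X were the exceptions. On all 20 the ratio was larger in gene bodies than in intergenic sequence. Chromosomes of 1 library are not replicates, and these counts describe how even the difference was.

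**Figure D2:**
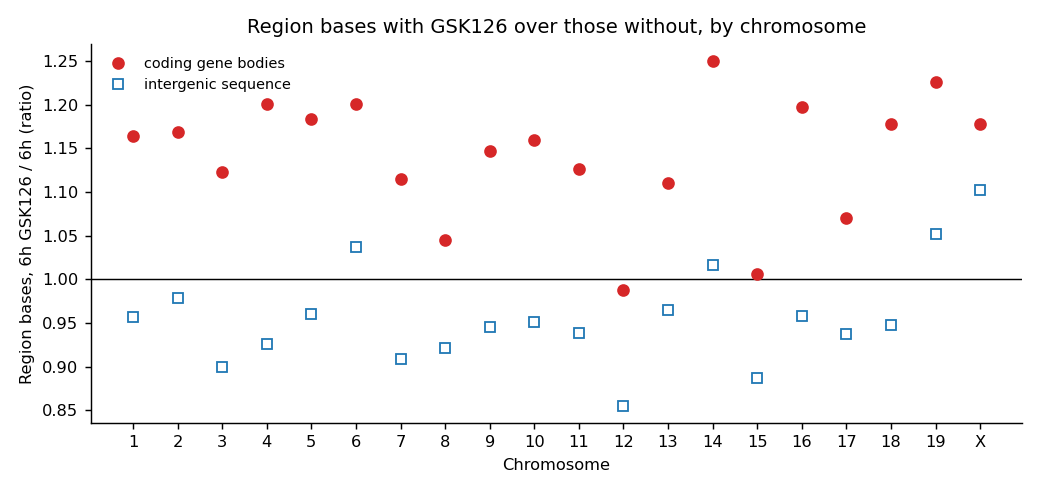
Ratio of region bases in the 6h GSK126 library to those in the 6h library (y axis) for each chromosome (x axis), with filled circles for coding gene bodies and open squares for intergenic sequence. The circle lies above the square on every chromosome, and the circles run from 0.988 to 1.25.

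Per gene, coverage is given as the share of body bases that regions hold, in percent, after 1 kb was trimmed from both ends, in 18415 protein-coding genes of 3 kb or more. The mean was 16.8% at 6h and 18.5% at 6h with GSK126, against 4.98% at 0h, 10.7% at 24h and 8.15% at 24h with GSK126. Many genes differed a little and few by much: 6155 (33.4%) had more coverage with GSK126, 4199 (22.8%) less, and 7701 held no region base in either 6h library. A difference of 50 percentage points or more is used as the mark of a gene that is higher or lower. By it 268 genes (1.46%) were higher with GSK126 and 174 (0.945%) lower. At 24h, by the same mark, 56 genes (0.304%) were higher and 328 (1.78%) lower.

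Highly expressed genes carried the gain. In the 8408 genes with 10 CPM or more at 0h, mean coverage was 20.1% without and 24.1% with GSK126, and 3678 of them (43.7%) had more and 1905 (22.7%) less. The 6299 silent genes (under 0.1 CPM) stood at 10.0% and 10.1%. Mean coverage of the 1323 low genes (0.1 to 1 CPM) was 24.4% and 23.1%, and that of the 1912 medium genes (1 to 10 CPM) 20.4% and 20.1%. Of the high genes 172 were higher by 50 points and 69 lower, of the silent genes 48 and 59. The low class changed its order where only regions at or above the median score were kept (a difference of 0.19 points) and without regions that hold 0h bases (0.54 points). So did the medium class in the second case (0.75 points). The silent class turned lower with GSK126 where only regions of 2 kb or more were kept (-0.49 points). It also did where GSK126 regions were kept by score up to the bases of the 6h library (-0.35 points).

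The gain of the high class depended on regions of low score, as its difference of 4.07 points was 1.35 points where only regions at or above the median score were kept. Regions inside bodies of high genes had a mean score of 1.41 at 6h and 1.51 with GSK126, and 69.7% and 64.9% of them had the score 1. Regions inside intergenic sequence scored higher in both lists, at 1.95 and 2.18. The higher class mean with GSK126 was found on 18 of 20 chromosomes, the exceptions being 12 (-0.70 points) and 15 (-0.34 points). The silent class was higher on 11 of 20.

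**Figure D3:**
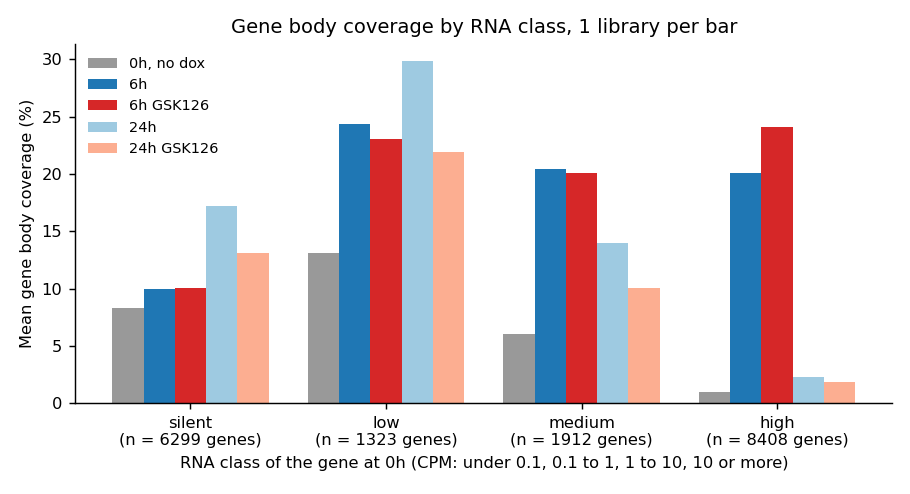
Mean gene body coverage (y axis, percent of bases inside regions) by RNA class of the gene at 0h (x axis), with 1 bar per library and no error bars since each is 1 library. In the high class the bar rises from 0.94% without doxycycline to 20.1% after 6h, or 24.1% where GSK126 was given, and the 24h pair stands at 2.26% and 1.87%.

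Within the high class the difference grew with expression up to 300 CPM and with gene length up to 100 kb. Genes of 10 to 30 CPM had means of 17.05% without and 19.3% with GSK126, those of 30 to 100 CPM 19.4% and 23.4%, those of 100 to 300 CPM 24.5% and 30.8%, and those of 300 CPM or more 23.0% and 28.1%. By length the means of high genes were 13.2% and 15.2% at 3 to 10 kb, 18.5% and 22.3% at 10 to 30 kb, 23.0% and 28.6% at 30 to 100 kb, 26.2% and 30.4% at 100 to 300 kb and 25.9% and 28.6% at 300 kb or more. In each of these 9 bins the GSK126 mean was the higher one. Silent genes of 30 to 100 kb and 100 to 300 kb were also higher, by 0.81 and 2.06 points, and shorter silent genes lower, at -0.32 points for 3 to 10 kb and -0.57 points for 10 to 30 kb.

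Along the gene, the gain of high genes began inside the body and went on past its end. In 5585 high genes of 10 kb or more with a known strand, mean coverage in the 10 equal bins of the body was 17.6 to 23.4% without and 20.4 to 28.2% with GSK126. The difference was largest in bin 3, 23.0% against 28.2%, and smallest in bin 1, 17.6% against 20.4%. Just downstream, from the gene end to 5 kb beyond, coverage was 31.0% and 34.9%, and from 5 to 10 kb it was level at 27.5% and 27.6%. Upstream of the start the order turned: 36.9% without and 34.6% with GSK126 in the last 5 kb before it, and 34.5% and 31.0% at 5 to 10 kb. The 3362 silent genes measured this way showed no such step, at 8.4 to 9.8% and 8.2 to 10.5% over the body bins, and their largest difference was in the 5 kb before the start (10.9% and 12.3%).

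**Figure D4:**
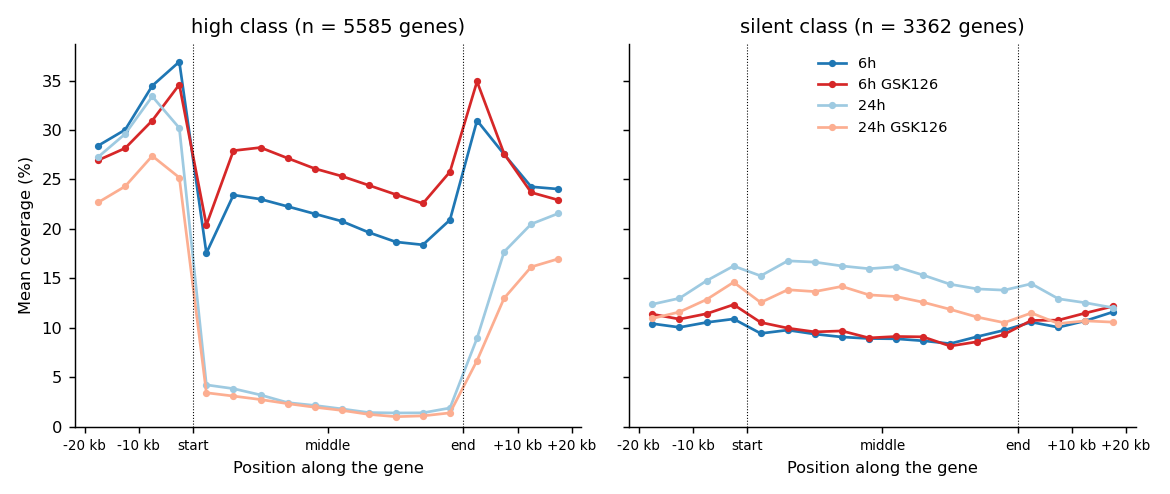
Mean coverage (y axis, percent) in 5 kb bins before and after the gene and in 10 equal bins of the gene body (x axis), for high genes on the left and silent genes on the right, with a line for each library. In high genes the 6h GSK126 line runs below the 6h line upstream, above it from the first body bin (20.4% against 17.6%) to 5 kb past the end, and both 24h lines drop to 4.2% or less inside the body.

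What was already covered before induction went the other way. The 656 genes with 50% or more of the body covered at 0h had mean coverage of 61.7% at 6h and 55.1% with GSK126, and 376 of them had less with the inhibitor and 175 more. Coverage of the 15164 genes with no 0h base was 12.9% and 15.4%. Of the 268 genes higher with GSK126, 254 (94.8%) had no 0h base, against 82.3% of all genes. Of the 174 lower genes 145 (83.3%) had none, near the share of all genes.

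Genes past 50 points in either direction were short, which the measure favours. After trimming, 1 region of median length can fill a short body, so a change from 0% to 100% can rest on 1 region. Of genes of 3 to 10 kb 3.51% were higher and 2.98% lower, against 0.572% and 0.0197% at 30 to 100 kb. The median length was 8.22 kb for the higher and 6.55 kb for the lower genes, against 22.7 kb for all 18415 genes. High RNA was found in 172 (65.4%) of the 263 higher genes with RNA counts and in 69 (40.1%) of the 172 lower genes with RNA counts, against 46.9% of all genes with counts. Silent genes were 18.3% of the higher and 34.3% of the lower ones.

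Among the longest of the higher genes were 2 that these fibroblasts did not express. Scn3a, which codes for a neuronal sodium channel (chr2:65457118-65567591), was covered by 11.8% at 6h and 69.1% with GSK126. It kept this order at 24h, with 10.7% and 67.3%, and had 11.98% at 0h. Lin28b, which codes for an RNA-binding protein that blocks let-7 maturation (chr10:45376617-45486314), had 7.16% and 63.6% at 6h and 12.1% and 18.5% at 24h. The others named here of the 10 longest were highly expressed, with 22.3 to 252 CPM, and none held a region base at 0h or in either 24h library.

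Upf2, a factor of nonsense-mediated mRNA decay, had 15.2% at 6h and 75.9% with GSK126. Top1, the gene of DNA topoisomerase I, had 30.1% and 82.0%. Wac, an adaptor of histone H2B ubiquitination, had 6.87% and 76.0%. In Cpeb4, Luc7l2, Rc3h2 and Kpna1 coverage was 0 to 28.7% without and 50.2 to 83.2% with the inhibitor. Each of these 7 was thus covered over most of its body in the treated 6h library and free of called regions a day after induction in both arms.

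The higher genes with the most RNA were of similar kind. Grem1, which codes for the BMP antagonist gremlin 1 (1053 ± 12.4 CPM, SD, n = 3), had 0% at 6h and 60.2% with GSK126. Rad21, a cohesin subunit gene (635 ± 4.41 CPM, SD, n = 3), had 33.7% and 86.2%, and Prdx1, which codes for a peroxide-removing enzyme, 0% and 54.8%. Hells, a chromatin remodeller gene, had 15.4% and 76.1%, and Ptgs2, which codes for the inducible cyclooxygenase, 23.1% and 81.1%. The other 5, Dhx15, Bclaf1, Bpnt2, Tmed5 and Psmd7, had 0 to 6.90% and 58.4 to 73.3%. All 10 were at 0% in the 0h library and in both 24h libraries.

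The lower genes held the mirror image at single genes. Ndufb9, a subunit of respiratory complex I (114 ± 6.36 CPM, SD, n = 3), was covered by 100% at 6h and 0% with GSK126. Ly6e, a surface protein gene, had 93.9% and 0%, and B2m, which codes for the light chain of MHC class I, 73.1% and 0%. Kpna6, an importin gene, had 59.8% and 3.73%, and Smap2, an Arf GTPase activator gene and the longest of the lower set at 49.0 kb, 70.7% and 20.0%. In Snw1, Ifrd1, Fkbp8, Cox6c, Rer1 and Chchd2 coverage was 59.8 to 80.2% without and 0 to 24.0% with the inhibitor. None of these 11 genes held a region base at 0h or at 24h in either arm.

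The longer lower genes with less RNA included Slc24a5, an ion exchanger of melanosomes, with 93.8% and 43.5%, and Itga2b, the platelet integrin gene, with 52.1% and 0%. Sult6b1, a sulfotransferase gene, was lower at 6h only (95.03% and 43.8%), having 94.0% at 0h, 100% at 24h and 94.0% at 24h with GSK126. P4htm, Pyroxd1 and Nudt1 had 55.4 to 69.7% without and 0 to 18.9% with GSK126.

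Few of these differences were still there at 24h. Of the 172 high genes that were higher at 6h, 166 had no region base in either 24h library. The 59 silent genes that were lower at 6h, with means of 85.2% and 10.2%, had 62.8% and 33.8% at 24h, where 31 had less with GSK126 and 5 more. Over all 6299 silent genes the 24h means were also lower with GSK126, at 17.2% and 13.1%. The 48 silent genes that were higher at 6h did not keep their order as a group: their means were 2.62% and 72.1% at 6h and 41.6% and 33.9% at 24h, with 12 having more and 18 less. By the 50 point mark 7 genes were higher at both times (2.61% of the 268 and 12.5% of the 56), and 12 of the 268 were lower at 24h. Over all genes 0.304% were higher and 1.78% lower at 24h. The 7 were Scn3a, Igfbpl1, Wnt10a, Defb48, Barhl2, Atp6v0e2 and Gpr3. Lower at both times were 25 (14.4% of the 174 and 7.62% of the 328), Nodal, Dlk1 and Tbx2 among them. The 2 pairs share no library.

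Of the genes of PRC2 itself, few differed by much. Of 11 measured subunit genes of 12, all highly expressed, 5 (45.5%) had more with GSK126 and 3 (27.3%) less, near the shares of all high genes (43.7% and 22.7%), and 3 held no region base in either. Mean coverage was 23.8% at 6h and 37.7% with GSK126, with a median difference of 0 points as for all genes. Phf1, a Polycomb-like accessory subunit (chr17:26933127-26937908), went from 0% to 100%, and Rbbp4, a histone-binding subunit, had 5.33% and 49.5%. Suz12, the scaffold subunit, was covered by 83.4% and 85.9%. Ezh1, the paralogue of Ezh2, had 45.6% and 41.0%. Ezh2, the target of the inhibitor, and Eed, which reads the mark, held no region base in any of the 5 libraries. The mean difference of 13.9 points rested largely on Phf1, and was 1.95 points with regions at or above the median score and 5.28 points without chromosomes 8, 15 and 17.

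The H3K27 demethylase and trithorax genes, which oppose PRC2, had a mean of 21.8% and 28.0% over 19 genes, all of them high, with 13 (68.4%) having more, 2 (10.5%) less and a median difference of 3.62 points. With regions at or above the median score the mean difference of 6.23 points was 0.96, with 7 having more and 3 less. Kmt2c, a histone H3 lysine 4 methyltransferase gene, had 7.02% and 30.3%, and Nsd2, which codes for a lysine 36 methyltransferase, 44.9% and 65.8%. The 24 PRC1 genes, of the complex that reads the PRC2 mark, were near level at 19.7% and 20.9%, with 9 having more and 8 less, and the mean difference changed sign with regions at or above the median score (-0.14 points). Pcgf6 had 52.1% and 87.3% and Pcgf3 32.5% and 10.5%. None of the genes in these last 2 lists passed 50 points. Macroh2a2 itself, the endogenous locus of the induced variant, had 21.8% and 20.9% at 6h, 46.9% at 0h, and 63.2% and 15.5% at 24h.

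Developmental regulators, the textbook targets of PRC2, moved in both directions gene by gene. Of 142 measured transcription factors outside the Hox clusters (of 163 named), 53 (37.3%) had more and 22 (15.5%) less with GSK126, against 33.4% and 22.8% of all genes, with means of 13.7% and 16.9%. By 50 points 3 (2.11%) were higher and 5 (3.52%) lower, against 1.46% and 0.945% of all genes. Of 52 measured signalling genes of development (of 53), 22 (42.3%) had more and 8 (15.4%) less, with means of 17.8% and 25.9%, and 4 (7.69%) were higher and 1 (1.92%) lower. The 25 measured Hox genes (of 39) were level, 6 with more and 6 with less and means of 21.0% and 22.2%. Their mean difference changed sign where only regions of 2 kb or more were kept (-0.28 points). Median differences were 0 points in these 3 lists, as over all genes.

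The silent members of the 3 lists, 139 genes, had a mean of 14.3% without and 19.8% with GSK126 at 6h, and 57 of them had more, 20 less and 62 the same. At 24h the order of the means was the opposite, 25.7% and 20.2%, with 33 having more and 45 less. All silent genes together stood at 10.0% and 10.1% at 6h, where 22.1% had more and 17.7% less. At 24h they stood at 17.2% and 13.1%, so the lower mean with GSK126 there was not particular to the 3 lists. Of the 142 transcription factors 98 were silent, as were 38 of the 52 signalling genes.

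Of the 11 silent developmental genes past 50 points, several kept their order at 24h. Barhl2, a homeobox factor of neural and retinal development (chr5:106452523-106458166), had 0% and 65.9% at 6h and 0% and 76.8% at 24h. Wnt10a, a Wnt ligand of skin appendages and teeth (chr1:74792019-74804176), had 0% and 70.9% at 6h and 0% and 72.8% at 24h. Six2, a homeobox factor of kidney progenitors, had 0% and 56.1%, then 0% and 22.1%. All 3 were silent and had no region base at 0h, so the regions were present in the treated arm only.

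Lower in the treated arm at both times were Nodal, Nkx2-3, Rax and Tbx2. Nodal, a TGF-beta family ligand of the early embryo (chr10:61417972-61425338), had 81.4% and 0% at 6h and 92.0% and 0% at 24h. Nkx2-3, a homeobox factor of gut and spleen (chr19:43612325-43615892), had 55.9% and 0% at both times. Rax, an eye field homeobox factor, had 88.2% and 31.1%, then 80.0% and 0%, and Tbx2, a T-box repressor, 70.7% and 16.4%, then 97.5% and 32.0%.

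The remaining 4 changed with time. Fgf8, a growth factor of limb and brain signalling centres (chr19:45736491-45742941), had 0% and 96.8% at 6h but 97.5% and 0% at 24h. Fgf4 had 0% and 56.2%, then 88.4% and 34.7%. Foxf1, a forkhead factor of mesenchyme, had 31.3% and 87.8% at 6h and 99.2% in both libraries at 24h. Zic2 had 58.7% and 4.35% at 6h and 72.3% in both libraries at 24h. For these 4 genes, then, the 6h difference was reversed or gone a day after induction.

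**Figure D5:**
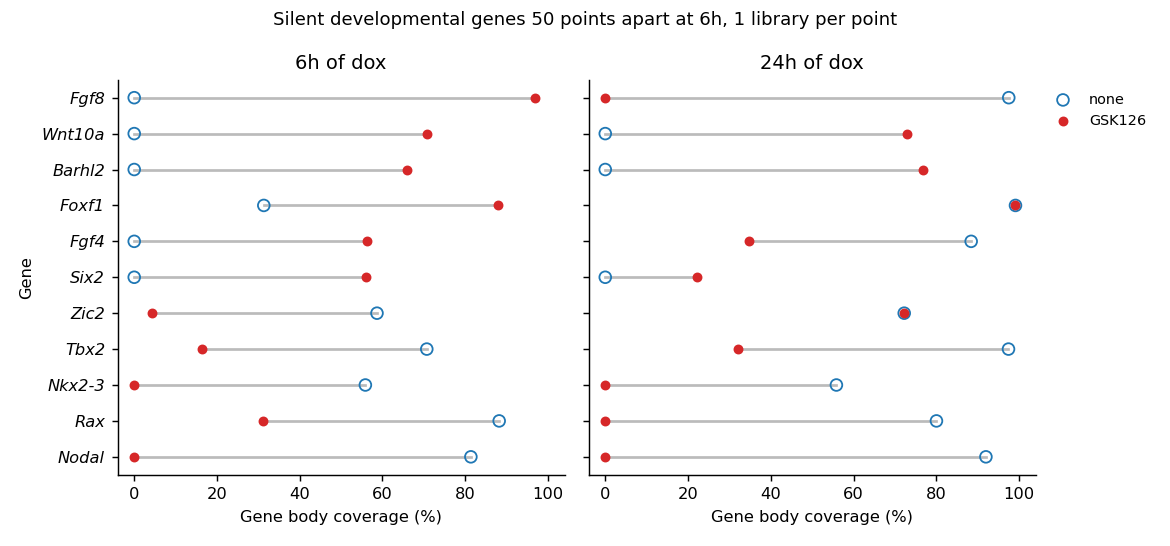
Gene body coverage (x axis, percent) of the 11 silent developmental genes that differed by 50 points or more at 6h (y axis), at 6h on the left and 24h on the right, with an open circle for the library without and a filled circle for the library with GSK126. Barhl2 and Wnt10a keep the same order at both times, while Fgf8 turns from 0% and 96.8% to 97.5% and 0%.

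Of 17274 windows, 983 were covered over 50% or more of their bases in both 6h libraries, 586 (3.39%) with GSK126 only and 605 (3.5%) without it only. This order turned without regions that hold 0h bases (406 with and 326 without GSK126), with regions at or above the median score (374 and 343), where any covered base counted (1277 and 1015) and without chromosomes 8, 15 and 17 (430 and 429). Coverage of the windows of high genes had means of 13.6% and 13.7%, and of silent genes 8.37% and 8.71%. Windows covered in both libraries were poor in CG dinucleotides, with a median of 5 CG in the 300 bases around the start (250 before, 50 after) in the RefSeq promoters of build GRCm38.p6. The median was 11 for windows with GSK126 only, 9 for windows without it only and 13 for windows covered in neither, over the 13320 promoters whose record lies within 100 bases of the gene start.

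Bodies behind CG-rich promoters (15 CG or more) held more of the gain. In high genes mean body coverage was 19.01% and 23.7% for 4105 CG-rich and 18.9% and 21.5% for 994 CG-poor promoters. In silent genes it was 12.2% and 13.2% for 613 CG-rich and 8.83% and 8.53% for 3041 CG-poor promoters. At 24h the means were lower with GSK126 in all 4 of these groups, at 21.0% and 16.1% for silent genes with CG-rich promoters.

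A smaller set of windows switched fully, from 90% or more of bases to none. At 6h 126 windows were full with GSK126 and empty without it, and 101 the reverse, of which 12 (9.52%) and 16 (15.8%) switched the same way at 24h. Of all 17274 windows, 82 switched the first way and 211 the second at 24h, so the 2 shares have unlike backgrounds. Empty in both 24h libraries were 59 of the 126 and 39 of the 101. Every one of the 12 present with GSK126 at both times belonged to a silent gene. They included Alb, the serum albumin gene of liver, and the metalloproteinase genes Mmp10 and Mmp27. Silent genes made up 41.1% of all windows with RNA counts, and 32.0% of those covered with GSK126 only at 6h. A full window at 24h was required too, and mean window coverage differed by class there. With GSK126 it was 10.0% for silent, 16.2% for low, 9.81% for medium and 6.10% for high genes. Whether this requirement accounts for the 12 was not tested. Some windows that switched at both times have their RefSeq record at the gene start. Among these, the 9 present with GSK126 had 0 to 5 CG (median 3). The 12 present without it had 0 to 19 (median 5.5), and 6 of them belonged to silent genes. To compare these sequences, the 2 richest in CG of each kind among silent genes, chosen after their values were seen, are given here 5′ to 3′ on the strand of its gene with CG in capitals. Akr1c18, a steroid dehydrogenase gene (chr13:4150597-4150896, minus strand, 5 CG), and Lrtm1, a leucine-rich repeat membrane protein gene (chr14:29017958-29018257, plus strand, 4 CG), had these 300 bases inside a region in both GSK126 libraries and in neither library without it nor at 0h.
Akr1c18: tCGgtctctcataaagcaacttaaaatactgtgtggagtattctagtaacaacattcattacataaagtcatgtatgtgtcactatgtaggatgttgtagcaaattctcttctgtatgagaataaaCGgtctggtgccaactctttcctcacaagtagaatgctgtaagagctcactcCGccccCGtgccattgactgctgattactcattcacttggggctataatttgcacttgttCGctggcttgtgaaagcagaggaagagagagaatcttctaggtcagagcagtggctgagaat
Lrtm1: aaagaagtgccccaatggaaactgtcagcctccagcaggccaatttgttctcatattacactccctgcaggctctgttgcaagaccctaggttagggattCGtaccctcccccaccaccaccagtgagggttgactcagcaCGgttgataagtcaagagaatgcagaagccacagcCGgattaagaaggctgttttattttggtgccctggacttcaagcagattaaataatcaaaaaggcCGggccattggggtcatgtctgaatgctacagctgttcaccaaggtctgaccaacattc
Duoxa2, the maturation factor of dual oxidase 2 (chr2:122298650-122298949, plus strand, 19 CG), and Nkx2-3 (chr19:43612075-43612374, plus strand, 15 CG) had these bases inside a region at 6h and 24h without GSK126 and in neither GSK126 library nor at 0h.
Duoxa2: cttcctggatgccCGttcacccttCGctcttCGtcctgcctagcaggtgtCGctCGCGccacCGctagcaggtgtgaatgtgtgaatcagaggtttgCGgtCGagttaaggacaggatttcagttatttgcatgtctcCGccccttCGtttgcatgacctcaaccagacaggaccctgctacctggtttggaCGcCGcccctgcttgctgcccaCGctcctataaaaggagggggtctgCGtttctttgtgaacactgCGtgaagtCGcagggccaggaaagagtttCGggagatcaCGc
Nkx2-3: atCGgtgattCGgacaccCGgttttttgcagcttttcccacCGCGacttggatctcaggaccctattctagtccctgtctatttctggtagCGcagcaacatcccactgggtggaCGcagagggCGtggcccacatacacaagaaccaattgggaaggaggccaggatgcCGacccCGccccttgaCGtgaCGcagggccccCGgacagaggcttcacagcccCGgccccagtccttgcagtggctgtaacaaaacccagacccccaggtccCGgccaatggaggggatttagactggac
Of the 13320 promoters 36.4% have at least as many CG as Duoxa2, 45.9% as many as Nkx2-3, 68.7% as many as Akr1c18 and 73.0% as many as Lrtm1. The promoter windows of Barhl2, Fgf4 and Six2 held no region base in any of the 5 libraries, so no region lay within 1 kb of these starts.

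Gene families outside the Polycomb system were read against the same shares of all genes, 33.4% with more and 22.8% with less. Among silent families, the 270 olfactory and vomeronasal receptors that were long enough had means of 2.44% and 1.93%. Of them 9 (3.33%) had more and 11 (4.07%) less, and none passed 50 points. The 48 keratins and keratin-associated proteins had 14.4% and 12.6%, with 6 (12.5%) having more and 11 (22.9%) less. Their mean difference changed sign without regions that hold 0h bases (0.74 points). Of 51 clustered protocadherins 19 had less and 1 more, by small amounts (3.33% and 2.59%). Clustered genes can share a region, and how many regions the 19 rest on was not counted. Potassium channels had more in 31 (34.1%) and less in 22 (24.2%) of 91, near the shares of all genes. Of the 91, 70 were silent, and of all silent genes 22.1% had more and 17.7% less. The means of the potassium channels were 9.77% and 13.3%, and Kcnk7 went from 0% to 100%. Glutamate and GABA receptors stood at 4.14% and 3.01% over 45 genes, Grin3b being lower (62.6% and 0%). The 71 synaptic adhesion and long neuronal genes had 5.67% and 6.11%.

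Zinc finger genes named Zfp, many of which code for repressors that bind transposons, had 7 higher (1.79%) and 1 lower (0.256%) of 390, against 1.46% and 0.945% of all genes, and 109 (27.9%) with more and 68 (17.4%) with less, against 33.4% and 22.8%. Zfp983 went from 0% to 99.8% and Zfp91 from 18.4% to 86.1%, and Zfp566 was the lower one at 53.7% and 0%. The mean of the list was 16.95% and 18.8%, and its difference turned to -0.19 points with regions at or above the median score (38 with more and 35 with less).

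Among housekeeping genes, replication and mitosis genes, all high, had a mean of 15.3% and 18.2% over 40 genes. Of them 14 (35.0%) had more and 6 (15.0%) less, against 43.7% and 22.7% of all high genes. Top2a, the gene of topoisomerase II alpha, had 27.5% and 69.7% and Mcm4, a helicase subunit of replication, 0% and 39.2%, while Birc5, the survivin gene, had 43.1% and 0%. Nuclear genes of the respiratory chain went the other way on average, 20.2% and 17.1% over 65 genes, 60 of them in the high class. Of the 65, 13 (20.0%) had more and 15 (23.1%) less. Ndufa5 was higher (1.54%), and Ndufb3, Ndufs3, Cox6c and Ndufb9 lower (6.15%), against 2.05% and 0.821% of all high genes. With regions at or above the median score this mean difference changed sign (2.50 points). The 42 cytosolic ribosomal protein genes of 3 kb or more were almost free of regions, at 2.92% and 2.65%, a difference that changed sign without chromosomes 8, 15 and 17 (0.33 points). Only 5 of 67 clustered histone genes are long enough to be measured, with 2 having more and 1 less. Of 5 cyclin-dependent kinase inhibitor genes measured, Cdkn2c had 0% and 44.4%.

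Genes that define the fibroblast were mixed as well. The 17 measured fibroblast markers had means of 18.2% and 23.1%, 7 (41.2%) with more and 2 (11.8%) with less. Of them 14 were high, and of all high genes 43.7% had more and 22.7% less. With regions at or above the median score the sign of the markers' mean difference changed (-2.80 points). Pdgfrb, a growth factor receptor gene, had 6.85% and 48.5%. The 41 matrix and contractile genes were level at 18.0% and 17.9%, the sign changing under 3 alternatives (0.35 to 1.37 points), with Acta2, the smooth muscle actin gene, at 5.02% and 35.1% and Lox, the collagen cross-linking enzyme gene, at 63.9% and 28.3%. Collagen genes stood at 20.2% and 19.8% over 44 members, 18 (40.9%) with more and 20 (45.5%) with less. Their mean difference also changed sign under 3 alternatives (0.060 to 2.17 points), and Col10a1 was lower (55.2% and 0%).

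Cytokine and chemokine genes stood at 23.7% and 25.6% over 49 members, and Il6 had 100% and 67.1%. The sign of the mean changed with regions at or above the median score (-3.08 points) and with regions of 2 kb or more (-0.22 points). In 23 cadherins the means were 18.99% and 17.8%, and GSK126 was the higher with regions at or above the median score (1.30 points), without regions that hold 0h bases (0.55) and without chromosomes 8, 15 and 17 (2.01). Of 40 measured imprinted genes 12 had more and 11 less, with means of 9.37% and 9.76% (-0.34 points with regions at or above the median score), and Dlk1, a paternally expressed growth regulator, was lower at both times (54.2% and 0%, then 76.8% and 0%). The 31 measured markers of other cell types had means of 18.3% and 14.3%, 11 with more and 10 with less, and Fabp4, the fatty acid binding protein gene of adipocytes, was lower (88.6% and 0%).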

How the data were processed

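The ChIP libraries were read as the authors' deposited region lists of the broad-peak caller SICER 1.1 (window 200 bases, gap 800 bases, threshold 0.01, per the file names), called per library after alignment with Bowtie 1.1.2 to GRCm38 (mm10), per the submitters' processing notes. Each deposited list has a score for every region, always a whole number; what it is relative to is not given in the sources used here. It also has a running number (unit: other, no measurement) that the authors' caller assigned. Running numbers were skipped for 5.28% (6h) and 3.92% (6h GSK126) of regions, 66.9% and 69.3% of these on chromosomes 8, 15 and 17. Such regions are not analysed here. The deposited RNA values were raw counts per gene from STAR 2.5.2b, per the labels and processing notes, in 3 replicates each at 0h and 6h. They were scaled to plain CPM from column 4.

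Intervals were intersected with pandas 2.3.3 and numpy 2.4.6 in Python 3.11.15, tested on simulated data (0 mismatches in 1060 comparisons). RefSeq's GRCm38.p6 annotation gave the gene positions. Genes were matched to counts by symbol in 17942 of 18415 gene bodies. Strand was known for 14637 bodies, and exons and introns were not used. Coverage has no test at 1 library a condition, so differences are described by counts beside all genes. Named genes were, past 50 points, the 10 longest and the 10 with the most RNA each way, up to 3 members of each of 25 lists differing by 20 points or more each way, the 5 longest unshared regions of each library, and Ezh2, Ezh1, Eed, Suz12 and Macroh2a2. Silent developmental genes past 50 points and the switching promoter windows were named after their values were seen. Not all genes selected this way are reported. Members and lists were chosen with earlier results of these data known. Alternatives changed the score and length of regions, the bases compared, overlap, trimming, threshold, gene length, window, chromosomes and RNA classes. The input library, the other ChIP libraries and the other region lists were not used.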

Additional observations from a re-analysis of the deposited data

Results flagged for a closer look

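In 3 values the difference between the GSK126 library and the library without it had opposite signs at 6h and at 24h. Each rests on 1 library per condition, and the difference between the times was not tested. Covered length differed by 9.53 Mb at 6h and by -24.9 Mb at 24h (GSK126 minus none). Region bases in protein-coding gene bodies differed by 21.2 Mb at 6h and -11.0 Mb at 24h. Mean body coverage of genes with 10 CPM or more differed by 4.07 points at 6h and by -0.40 points at 24h, where little coverage was present in either library (2.26% and 1.87%).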

How the results depend on the processing

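Of 166 values recomputed under alternatives, 110 stayed within counting error or 1.5 times of the reported value, 56 moved and 0 changed sign beyond counting error. Only differences, not counts, could be marked as a change of sign. Counting error for the silent, low and medium classes (1.05, 3.24 and 2.55 points) exceeded their differences (0.089, -1.33 and -0.38 points). Changes of sign within that error count among the 110. So do values that the alternative could not alter, such as the share of bases in bodies under another threshold. Values below are without GSK126 first where there are 2. With regions at or above the median score, covered length was 202.9 and 213.6 Mb in 32158 and 45503 regions, shared regions 82.5% and 62.9%, higher and lower gene bodies 110 and 99, the mean difference 0.77 points and that of high genes 1.35, the share of bases in bodies 3.63 and intergenic -2.96 points, one-sided promoter windows 343 and 374, and higher list members 6. With regions of 2 kb or more it was 373.1 and 371.7 Mb, with 80.4% and 73.9% shared. With bases matched it was 382.7 Mb with GSK126, with 83.6% and 74.7% shared, and with 50% of a region required 75.4% and 66.9% were shared. Lower gene bodies without trimming numbered 115 (9 list members). Higher and lower gene bodies were 844 and 518 at 30 points (list members 63 and 38), 94 and 83 at 70 points (6 and 4), and 109 and 39 among genes of 10 kb or more (8 and 3). Where any covered base counted, windows covered in 1 library only numbered 1015 and 1277. Without X and Y 379.6 and 388.7 Mb were covered.

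A pair of alternatives was chosen after seeing the data. Without regions that hold 0h bases, 176.0 and 212.4 Mb lay in 37294 and 52266 regions, 80.0% and 58.8% were shared, the shares of bases differed by 1.41 points in bodies and -1.19 intergenic, and windows covered in 1 library only were 326 and 406. Without chromosomes 8, 15 and 17, 286.3 and 298.3 Mb were covered, 86.1% and 71.3% shared, and 10 list members higher. Of the 25 lists, 12 changed the sign of their mean difference under at least 1 alternative that changed the regions. Leaving out 1 RNA replicate of the 0h classes gave differences of 4.07 to 4.09 points for high and 0.060 to 0.117 for silent genes. No paired analysis was possible because each ChIP condition has 1 library. Unknown ChIP depth limits every count of regions.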
